A study of Rattus norvegicus with 4 samples.

Results

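The genes described here carry out ubiquitin conjugation, ubiquitin removal and proteasomal degradation, and their mRNA levels were followed in rat kidney tubular cells over 4 doses of hydrogen peroxide (H2O2). They were chosen by symbol only: proteasome subunits and their partners (Psma to Psmg), ubiquitin precursors (such as Ubb), activating enzymes (Uba), conjugating enzymes (Ube2) and deubiquitinases (Usp and Uchl). Of 65 such genes named on the array, 63 gave a signal well above background on at least 1 of the 4 arrays, out of 6028 named genes and 22352 named or unnamed features measured in all. All 63 were well above background on all 4 arrays. Log2 levels relative to the 75th percentile of each array were -3.52, -3.19, -2.27 and -2.90 from the control to 0.009% for Usp18, the dimmest gene inside the limit. The genes outside it, not well above background on any array, were Ube2b, with -6.34, -6.23, -5.26 and -4.20, and Uchl1, with -6.18, -6.05, -5.69 and -5.65. Psmb5, Psmd14 and Uchl5 were not analysed here.

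NRK-52E is an established line of rat kidney tubular epithelial cells. Per the labels, confluent cultures were exposed for 1 h to 0 (the control), 0.003, 0.006 or 0.009% H2O2 in DMEM, washed, and kept for 12 h in DMEM without serum, so the control had also gone without serum. Total RNA of 1 culture per dose was labelled with Cy3 and hybridised to 1 array. The labels describe the series as following gene expression after cell death was induced.

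Proteins are marked for destruction by a chain of ubiquitin molecules. An E1 enzyme activates ubiquitin, an E2 enzyme carries it, an E3 ligase places it on the substrate, and deubiquitinases remove it. The 26S proteasome then degrades the marked protein: the 19S cap binds and unfolds it with a ring of ATPases, and the beta ring of the 20S core, held between alpha rings, cuts it. Oxidised proteins are among the substrates of this system, and proteasome genes can be induced together by stress transcription factors.

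Levels are log2 signals relative to the 75th percentile of the same array, so 0 stands for a spot at that percentile, and a difference is the level at a dose minus the level in the control. The 75th percentile itself was 180, 168, 158 and 121 intensity units from the control to 0.009%, and between 52.3% and 55.4% of spots were well above background. With 1 array per dose no difference has a replicate check, and the 2-fold limit used below describes size and tests nothing. Errors (±) are the scanner software's spot error, propagated. Their median over the 63 genes was 0.20, and they do not cover the spread between cultures. The arrays lay on 1 slide in the order of dose, so dose and slide position cannot be told apart, and in bulk RNA fewer cells of a type and less RNA per cell cannot be told apart either.

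Array median and spike-in scaling moved all genes of an array by 1 value, and quantile normalization and normexp background correction did not. With quantile normalization at 0.009%, the difference of Ubb went from 1.50 to 0.64 and that of Usp10 from 1.21 to 1.26. Relative to the 75th percentile, scaling to the array median shifted every difference by -0.15, -0.31 and -0.56 at the 3 rising doses, and scaling to spiked-in control RNA shifted it by -0.19, -0.55 and -1.19. Of the positive differences, 49 of 52 did not turn negative under any alternative processing at 0.003%, 25 of 48 at 0.006% and 4 of 44 at 0.009%. Ubb, Ube2d3 and Usp10 were among these 4. Of the negative differences, 9 of 11, 14 of 15 and 18 of 19 did not turn positive at the rising doses. Array median and spike-in scaling shift every difference downward, so no negative one could turn positive under them. These counts are therefore not comparable with those of the positive differences. All features moved as well. Their median difference was -0.12, -0.25 and -0.40 with array median scaling and -0.16, -0.48 and -1.08 with spike-in scaling.

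Of the epithelial markers Krt8 was abundant, with levels of 5.89, 5.80, 5.45 and 5.20 from the control to 0.009%. In all, 7 of 10 tubule epithelium markers were measured, while Epcam and Pax8, among others, were not well above background on any array. The signals of the epithelial list, in multiples of the array's 75th percentile, summed to 61.6, 56.9, 44.9 and 38.6 from the control to 0.009%, a sum made up mostly of Krt8. Other epithelial markers lay on the other side of the control: Krt18 had levels of -3.95, -1.74, -1.20 and -0.86, and Cldn4 (3 arrays well above background) and Cdh1 (2 arrays) were also higher on each treated array. Aqp1 (0.96, -1.15, -0.89 and -0.37), Cdh16 and Lrp2 (1 array well above background) were lower on each treated array. The fibroblast list (2 of 6 markers measured) summed to 28.6, 8.44, 12.2 and 17.8. The endothelial list (1 of 5) summed to 0.107, 0.202, 0.246 and 0.322, and Pecam1 was not well above background on any array. The macrophage and leukocyte list (3 of 5) summed to 2.41, 2.98, 3.97 and 4.31, a sum made up mostly of Cd68 (levels of 1.16, 1.44, 1.95 and 2.04). Adgre1 (3 arrays well above background) had levels of -2.89, -2.28, -4.70 and -3.21, below the control at 0.006 and 0.009%. Csf1r was well above background on 1 array. The part of these shifts in the results was not tested.

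As a whole, the 63 genes lay above the control most widely at the lowest dose. Their median difference was 0.60, 0.36 and 0.29 at 0.003, 0.006 and 0.009%, beside 0.027, 0.048 and 0.16 for all features. Scaling to the array median gave -0.27 at 0.009%, and scaling to the spike-ins gave -0.89. The difference was above 0 for 52 genes at 0.003% (51.3% of all features), 48 at 0.006% (51.9%) and 44 at 0.009% (56.9%). Read against the median of all features, which moves with the scaling, the median of the 63 genes stood 0.57, 0.32 and 0.14 higher, and at 0.009% it stood 0.072 lower with normexp background correction.

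Few of these genes stood far from the control. At least 2-fold higher were 11 of 63 genes at 0.003% (14.9% of all features), 12 at 0.006% (14.9%) and 6 at 0.009% (16.5%), so the shares of genes past this limit were near or below the background. At least 2-fold lower were 1, 2 and 1 genes, beside 13.6%, 10.5% and 7.4% of all features. The genes at least 2-fold higher at some dose included Ubb, Ube2d2b, Ube2d3, Ube2f, Ube2j2, Ube2n, Ube2v2, Usp10, Usp15, Usp18, Psma5, Psmc2, Psmd3, Psmd12 and Psmd9. Those at least 2-fold lower were Uba1 and Usp11.

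Ubiquitin itself is made from fusion genes. Ubb encodes a head-to-tail chain of ubiquitin and is known as stress-inducible. Ubb had levels of 8.56, 9.31, 9.73 and 10.06 at 0, 0.003, 0.006 and 0.009%. It was lowest in the control and higher at each step of dose, an order found in 13.1% of features well above background on 4 arrays, except that with spike-in scaling the level at 0.009% was lower than at 0.003%. With quantile normalization its difference was 0.64 at 0.009% and 0.68 at 0.006%. Ubb was 1.69-, 2.26- and 2.83-fold above the control at the rising doses, and its difference at 0.009% was 1.50 ± 0.20.

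A second Ubb probe gave the same order of doses, with differences of 0.19, 0.47 and 0.85. Ubb stayed above the control at 0.009% under every alternative, with the smallest value, 0.31, under spike-in scaling. Rps27a, the ubiquitin fusion with a protein of the small ribosomal subunit, differed by 0.34, 0.49 and 0.92, and by -0.062 and -0.27 at 0.006 and 0.009% with spike-in scaling.

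**Figure D1:**
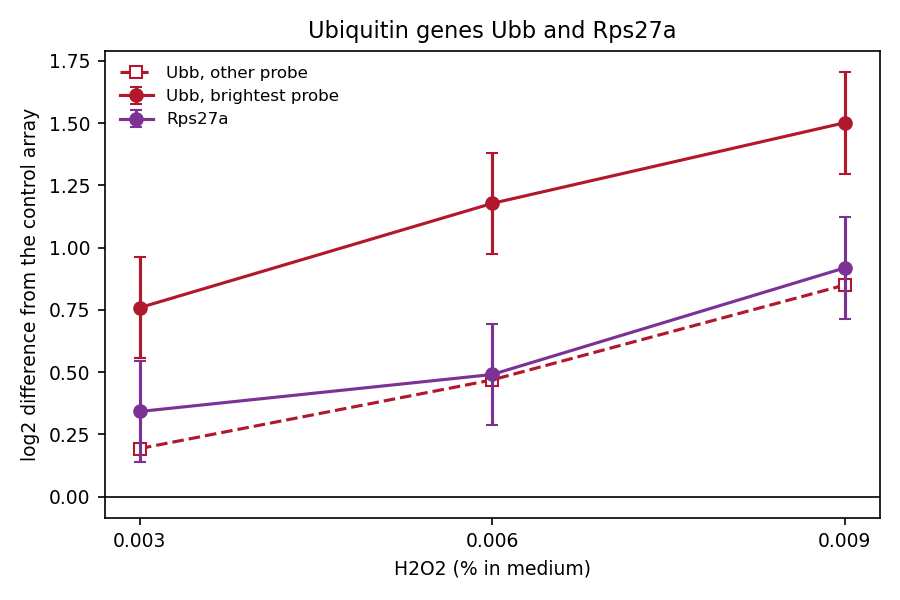
Difference from the control array (log2, y axis) of Ubb and Rps27a at each H2O2 dose (percent, x axis), 1 array per dose, with error bars of 1 spot error. Filled circles are each gene's brightest probe and open squares the other probe of Ubb. Every line is higher at each step of dose on this scale, up to 1.50 for Ubb at 0.009%, while with spike-in scaling both genes were lower at 0.009% than at 0.003%, and Rps27a lay below the control there.

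Among the activating enzymes, Uba1, the main E1 of ubiquitin, was lower than the control at every dose, with levels of 3.26, 2.30, 2.24 and 2.37 at 0, 0.003, 0.006 and 0.009%. Its difference was -0.96, -1.03 and -0.89, and that of its second probe -0.68, -0.79 and -0.94, negative under every alternative. Uba3, the catalytic subunit of the NEDD8 E1, differed by -0.19, -0.44 and -0.50, also negative under every alternative. Array median and spike-in scaling could only lower the values of Uba1 and Uba3.

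The E2 enzymes, which pass ubiquitin or a related modifier from the E1 to a ligase or substrate, were as a class above the control. Of 12 measured, 12, 11 and 10 had a difference above 0 at the rising doses, and 4, 6 and 2 were at least 2-fold higher. Of all features, 51.3%, 51.9% and 56.9% were above 0 and 14.9%, 14.9% and 16.5% at least 2-fold higher, so the count of 2 at 0.009% is near the background. The class median was 0.79, 0.74 and 0.41, and at 0.009% it was -0.15 by array medians and -0.78 by spike-ins.

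Ube2d3, a broadly acting E2 that works with many ligases, had levels of 4.66, 6.10, 6.00 and 5.87 at 0, 0.003, 0.006 and 0.009%. All 3 treated arrays lay at least 1.22 above the control, and the difference at 0.009% was still 0.031 above 0 with spike-in scaling. Ube2n, which builds chains used in signalling and DNA repair rather than in degradation, had levels of 4.42, 5.36, 5.50 and 5.29. Its partner Ube2v2, a catalytically inactive E2 variant, had levels of -0.38, 1.03, 1.01 and 0.65. On this scale both partners lay above the control on every treated array. The second Ube2v2 probe gave smaller differences of 0.10, 0.24 and 0.46, and spike-in scaling turned Ube2v2 at 0.009% to -0.16 and Ube2n to -0.32.

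Ube2d2b, a rodent gene closely related to Ube2d2, had levels of 1.13, 2.98, 2.54 and 1.93 at 0, 0.003, 0.006 and 0.009%, and a probe may not separate it from its relatives. It had the highest difference of all 63 genes at 0.003% (1.84 ± 0.20) and less at each higher dose. Ube2j2, a membrane-anchored E2 of endoplasmic reticulum quality control, differed by 1.29, 1.20 and 0.58. Ube2f, an E2 for NEDD8, differed by 0.92, 1.00 and 0.43. The differences of these 3 genes at 0.009% were below 0 with spike-in scaling, and that of Ube2f also with array median scaling.

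Among the E2 genes with the lowest differences at 0.009% were Ube2g1, Ube2e3 and Ube2z. Ube2g1 had levels of -1.57, -0.96, -1.37 and -1.76 from the control to 0.009%. Ube2z, which is charged by Uba6, had levels of -2.03, -1.37, -1.56 and -1.78. Ube2e3 had levels of 4.18, 4.29, 4.13 and 4.14. In these 3 genes the lowest treated dose gave the highest level on this scale. For Ube2e3 its difference from the control was only 0.11, and negative with array median, spike-in and quantile scaling. At 0.009% the differences were -0.19 for Ube2g1, -0.042 for Ube2e3 and 0.24 for Ube2z. With array median scaling all 3 were below 0 there, and with normexp Ube2g1 was above 0. Ube2a, a partner of ligases in DNA damage tolerance, and Ube2l6, the E2 of interferon-induced ISG15, differed by 0.38 and 0.30 at 0.009%, both negative with array median scaling.

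The deubiquitinases had no common direction. Of 11 measured, 8, 8 and 6 had a difference above 0 at the rising doses, or 8, 5 and 1 with spike-in scaling. With that scaling the median difference of all features was -0.16, -0.48 and -1.08. At least 2-fold higher were 2, 2 and 1, and at least 2-fold lower was Usp11 at each dose. These 2-fold counts are near the shares of all features, 14.9%, 14.9% and 16.5% higher and 13.6%, 10.5% and 7.4% lower. Usp10, known to act on p53, had levels of 0.42, 2.01, 2.16 and 1.63 at 0, 0.003, 0.006 and 0.009%. Usp11, linked to DNA repair, had levels of -1.02, -2.71, -2.41 and -2.23. The 2 genes lay on opposite sides of the control on all 3 treated arrays. The second Usp10 probe gave 1.52, 1.70 and 1.04. Usp11 was below the control under every alternative, with -0.66, -0.56 and -0.32 with normexp background correction. Array median and spike-in scaling could only lower its values.

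Usp15 and Usp18 passed the 2-fold limit at 1 dose each. Usp15 had levels of 0.82, 2.04, 1.82 and 1.23 from the control to 0.009%, and Usp18, which removes ISG15, -3.52, -3.19, -2.27 and -2.90. Usp18 was the dimmest gene measured, and its difference at 0.009% was 0.61 ± 0.40. At 0.006% it was 1.25, but 0.94 with array median, 0.70 with spike-in, 0.98 with quantile and 0.40 with normexp processing. The second Usp18 probe was not well above background on any array. Usp15 differed by 1.22 at 0.003%, and by 0.996 with normexp. Usp1, which acts on the DNA repair proteins PCNA and FANCD2, had levels of 2.52, 3.37, 3.44 and 2.99. Usp14, a deubiquitinase bound to the 19S cap, had levels of 3.98, 4.76, 4.66 and 4.38, and its second probe differed from the control by 1.83, 1.58 and 0.98. All 4 genes lay above the control on every treated array, although at 0.009% each was below it with spike-in scaling. Usp15, Usp1 and Usp14 were below it there with array median scaling as well.

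At the low end, Usp48 differed by -0.61, -0.74 and -0.84, but its second probe gave 0.86, 0.56 and 0.21, so the direction of this gene depended on the probe. Usp7, which stabilises both Mdm2 and p53, had levels of 1.34, 1.94, 1.43 and 0.87 at 0, 0.003, 0.006 and 0.009%. Usp19, an enzyme anchored in the endoplasmic reticulum, had levels of 1.83, 2.16, 1.84 and 1.27. Both were above the control at 0.003% and below it at 0.009%. Usp3, an enzyme acting on histone ubiquitin, had the same pattern, with differences of 0.21, 0.024 and -0.36. Usp2 differed by -0.065, -0.041 and 0.15, with a sign that turned under other processing at each dose.

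**Figure D2:**
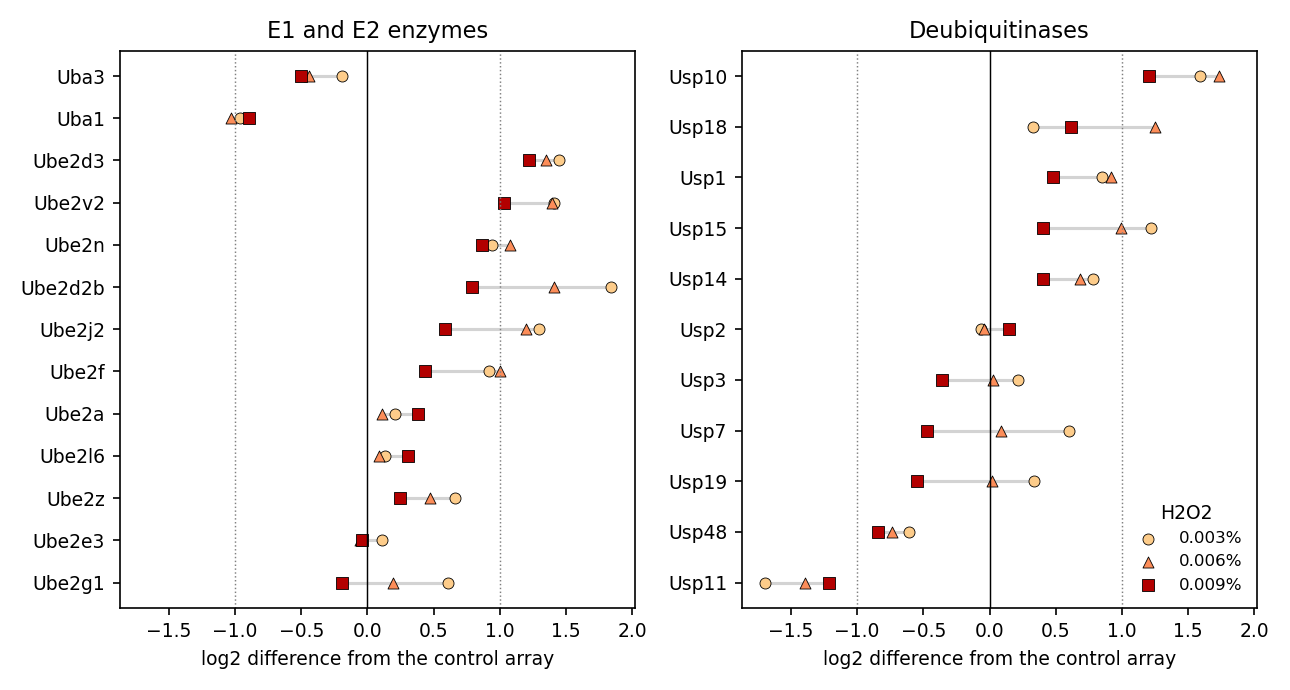
Difference from the control array (log2, x axis) of the named E1 and E2 enzymes (left panel) and the deubiquitinases (right panel), 1 gene per row, at 0.003% (circles), 0.006% (triangles) and 0.009% H2O2 (squares), 1 array per dose, with dotted lines at the 2-fold limits. Ube2d3 and Usp10 lay above the control at all doses under every scaling and Uba1 and Usp11 below it, whereas the other positive values at 0.009% turned negative under at least 1 other scaling. Array median and spike-in scaling shift all values downward, so no negative value could turn under them.

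The subunits of the 26S proteasome shared one order of doses. All 24 measured subunits of the 20S core and the 19S cap were compared. At the rising doses 23, 21 and 20 of them lay above the control, beside 51.3%, 51.9% and 56.9% of all features. The counts were 23, 17 and 5 with array median scaling and 23, 10 and 0 with spike-in scaling. The subunits' median difference was 0.70, 0.51 and 0.30. With spike-in scaling it was 0.52, -0.047 and -0.89, beside -0.16, -0.48 and -1.08 for all features. In 22 of 24 (91.7%) the level was highest of the treated arrays at 0.003%, lower at 0.006% and lowest at 0.009%. The same order was found in 30.4% of features well above background on 4 arrays, and in 35.6% of those with a mean level above the 75th percentile. The exceptions were Psma6 and Psmb4, whose levels were higher at each step of dose on this scale.

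This order does not need the control array, and it was found in 23 of 24 subunits with quantile normalization and 23 with normexp. Array median and spike-in scaling, which shift the higher doses downward in all genes, gave 24. The background share moved too, to 52.9% of features with array median, 79.6% with spike-in, 33.1% with quantile normalization and 28.4% with normexp. The height above the control was less stable: at 0.009% the subunits' median came to -0.27 with array median, -0.89 with spike-in, 0.037 with quantile normalization and 0.11 with normexp.

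The alpha ring, which gates the entry to the 20S core, lay above the control in 7 of 7 subunits at all doses (38.9% of features well above background on 4 arrays), although 5 of 7 were negative at 0.006% and 7 of 7 at 0.009% with spike-in scaling. With that scaling the median of all features was -0.48 at 0.006% and -1.08 at 0.009%. Psma5 had levels of 6.47, 7.74, 7.54 and 7.17 at 0, 0.003, 0.006 and 0.009%, and was 2.41-fold above the control at 0.003%. Psma1 differed by 0.88, 0.63 and 0.41 and Psma3 by 0.74, 0.52 and 0.41. In each of these subunits the lowest dose gave the highest level. Psma7 differed by 0.60, 0.32 and 0.12, Psma2 by 0.52, 0.32 and 0.20 and Psma4 by 0.47, 0.27 and 0.23. Psma6 differed by 0.19, 0.20 and 0.30.

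The beta ring holds the cutting sites. Psmb6, which carries the caspase-like site, had levels of 4.08, 4.44, 4.08 and 3.92 at 0, 0.003, 0.006 and 0.009%, and so lay above the control at 0.003% only. Psmb7, which carries the trypsin-like site, had levels of 3.88, 4.66, 4.52 and 4.29. The non-catalytic Psmb4 had levels of 5.56, 6.16, 6.18 and 6.29. Psmb7 and Psmb4 were above the control on all treated arrays, with opposite orders of dose on this scale. Psmb2 differed by 0.77, 0.75 and 0.63, Psmb3 by 0.52, 0.33 and 0.23 and Psmb1 by 0.43, 0.29 and 0.18. At 0.009% all 6 were below the control with spike-in scaling, where the median of all features was -1.08.

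The ATPases of the 19S cap form the ring that unfolds substrates. Psmc2 had levels of 6.13, 7.15, 6.98 and 6.78 and Psmc1 6.57, 7.47, 7.26 and 6.95 at 0, 0.003, 0.006 and 0.009%. Psmc5 differed by 0.70, 0.45 and 0.31 and Psmc4 by 0.85, 0.50 and 0.037. These 4 lay above the control and closer to it at each higher dose, while Psmc3 differed by -0.02, -0.20 and -0.26. The second Psmc4 probe was on the other side of the control at 0.009%, and 5 of 5 ATPases were below the control there with spike-in scaling. With that scaling the median of all features was -1.08 at 0.009%.

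Among the non-ATPase subunits of the cap, Psmd3, a lid subunit, had levels of 3.54, 4.96, 4.56 and 3.84 at 0, 0.003, 0.006 and 0.009%. Psmd12, another lid subunit, had levels of 3.84, 5.07, 5.04 and 4.87. At 0.003% they were 2.67- and 2.34-fold above the control, and at 0.009% 1.22- and 2.04-fold. Psmd12 was the single proteasome gene at least 2-fold higher at 0.009%, and it turned to -0.16 with spike-in scaling. Psmd6, also in the lid, differed by 0.97, 0.72 and 0.41, and Psmd1, a scaffold of the base, by 0.71, 0.51 and 0.28. Psmd2, which anchors ubiquitin-binding shuttle factors, differed by 0.25, 0.02 and -0.15, and the ubiquitin receptor Psmd4 by 0.23, -0.015 and -0.026. Psmd2 and Psmd4 were above the control at 0.003% and below it at 0.009%.

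**Figure D3:**
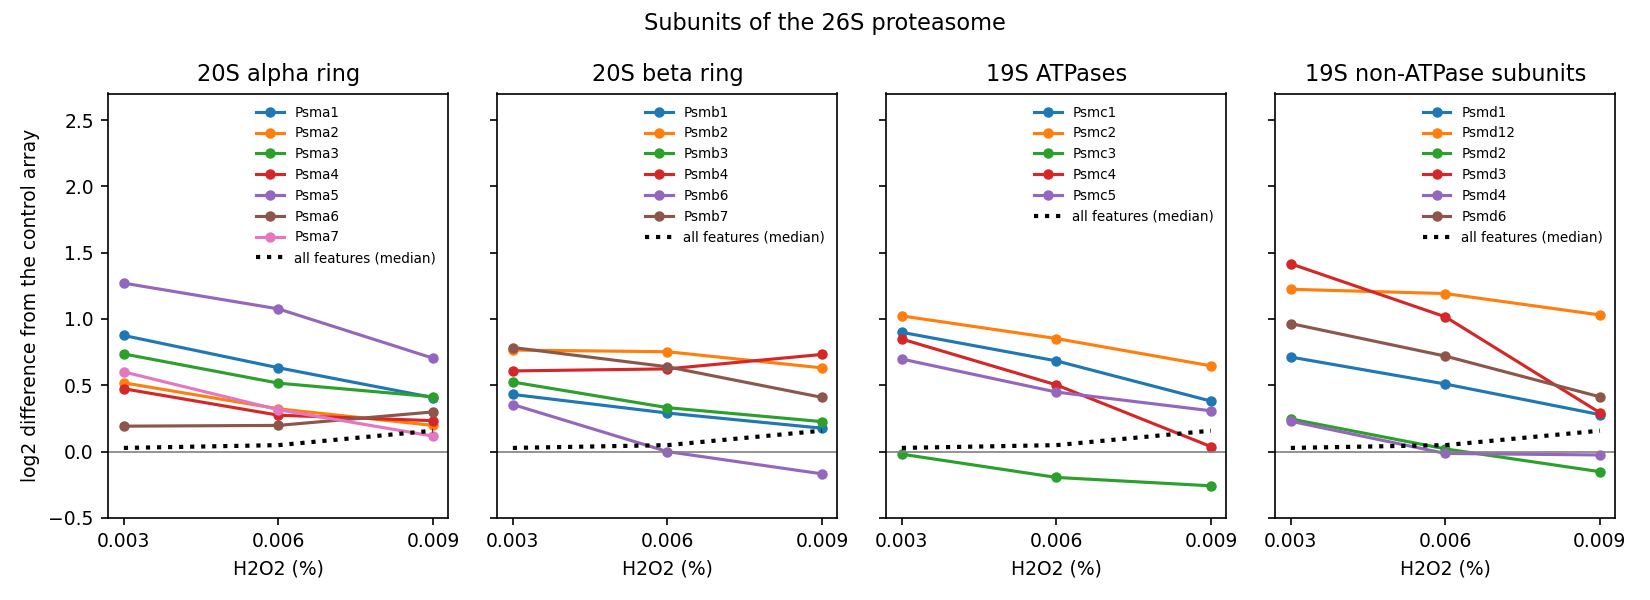
Difference from the control array (log2, y axis) of each 26S subunit at each H2O2 dose (percent, x axis), 1 array per dose, in 4 panels by position in the complex, with the median of all features dotted. Lines slope downward in 22 of 24 subunits, and the values at 0.009% lay below 0 for all 24 subunits with spike-in scaling. With that scaling the median of all features at 0.009% was -1.08.

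**Figure D4:**
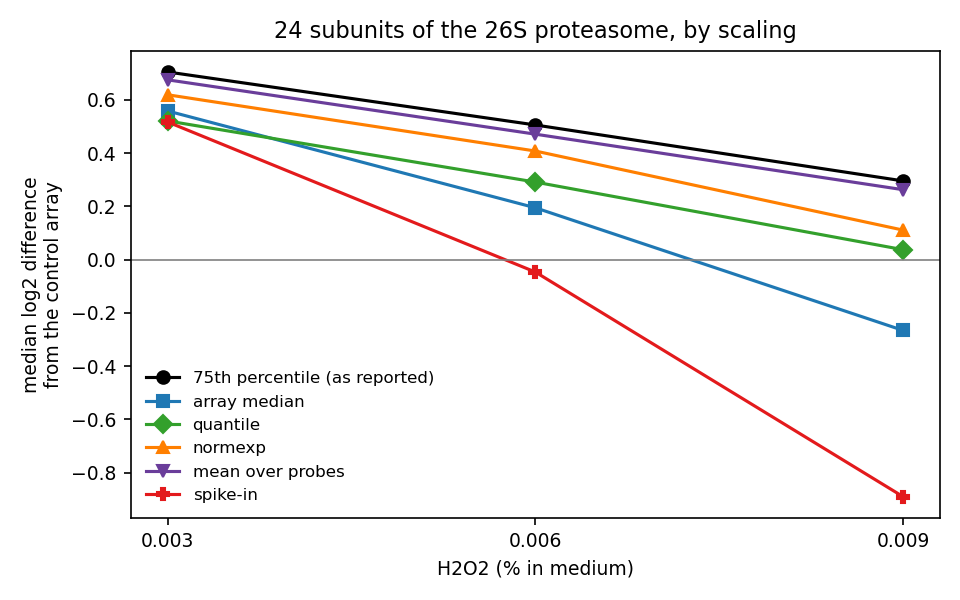
Median difference from the control array (log2, y axis) of the 24 subunits of the 26S proteasome at each H2O2 dose (percent, x axis), with 1 line for each way of scaling or processing the arrays. The median was lower at each higher dose on every line, and at 0.009% it lay between -0.89 with spike-in scaling and 0.30 with the 75th percentile.

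The immunoproteasome subunits, which replace the catalytic beta subunits after interferon, differed among themselves. Psmb8 had levels of 0.73, 1.48, 0.85 and 0.45 at 0, 0.003, 0.006 and 0.009%. Psmb9 had levels of 2.02, 1.46, 1.51 and 1.86. Psmb10 had levels of 3.95, 3.95, 3.92 and 4.14. Psmb8 was lower at each higher dose, above the control at 0.003% and below it at 0.009%, Psmb9 was below the control on every treated array, and Psmb10 differed from it by 0.0062, -0.03 and 0.19, with a sign that turned under other scalings at 0.003 and 0.009%. The PA28 activators Psme1 and Psme2, also interferon-inducible, differed by -0.52, -0.24 and -0.0061 and by -0.39, -0.37 and -0.11. The nuclear activator Psme3 was on the other side of the control, with 0.74, 0.43 and 0.28, negative at 0.006% with spike-in and at 0.009% with array median and spike-in scaling.

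Psmd9, a chaperone that helps assemble the ATPase ring, had levels of 4.20, 5.51, 5.09 and 4.81 at 0, 0.003, 0.006 and 0.009%, with its highest level at 0.003% and, with spike-in scaling, a level below the control at 0.009%. Psmd10, a second such chaperone also known as gankyrin, differed by 0.33, 0.36 and 0.37, negative at 0.006% with spike-in and at 0.009% with array median and spike-in scaling. Psmc3ip and Psme3ip1 match the symbol rule without being proteasome subunits. Psmc3ip, a meiotic recombination factor, differed by -0.71, -0.73 and -0.23, and Psme3ip1, which binds Psme3, by -0.45, -0.33 and -0.41.

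Promoters from RefSeq (assembly GRCr8) were searched because proteasome genes are known targets of stress-responsive factors. Of the 63 genes, 53 matched an entry, with 54 promoters. The antioxidant response element core TGACNNNGC lay within 250 bases before the start, on either strand, in 9 of 54 promoters (16.7%), against 10.1% of 33469 promoters in the table. The 9 genes were Psmb2, Psma3, Psmd1, Psmb6, Psmd9, Ube2n, Usp2, Usp14 and Ubb. The 5 proteasome genes among them are shown as 180 bases before the start, 5′ to 3′ on the gene's strand, with matches in capitals. They lie at chr5:144254878-144255057 (Psmb2, plus strand), chr6:95219569-95219748 (Psma3, plus strand), chr9:94157791-94157970 (Psmd1, plus strand), chr10:55737708-55737887 (Psmb6, plus strand) and chr12:39018265-39018444 (Psmd9, minus strand).
Psmb2: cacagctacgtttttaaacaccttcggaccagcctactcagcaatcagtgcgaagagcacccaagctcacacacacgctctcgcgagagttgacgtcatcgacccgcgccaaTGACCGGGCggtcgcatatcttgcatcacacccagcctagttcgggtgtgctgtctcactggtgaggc
Psma3: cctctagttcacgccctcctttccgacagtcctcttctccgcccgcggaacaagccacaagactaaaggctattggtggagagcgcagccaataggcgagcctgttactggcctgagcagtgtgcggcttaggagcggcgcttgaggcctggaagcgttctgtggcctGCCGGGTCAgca
Psmd1: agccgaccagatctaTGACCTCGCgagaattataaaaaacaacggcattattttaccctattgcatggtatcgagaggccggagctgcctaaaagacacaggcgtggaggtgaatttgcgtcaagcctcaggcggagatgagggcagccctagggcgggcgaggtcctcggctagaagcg
Psmb6: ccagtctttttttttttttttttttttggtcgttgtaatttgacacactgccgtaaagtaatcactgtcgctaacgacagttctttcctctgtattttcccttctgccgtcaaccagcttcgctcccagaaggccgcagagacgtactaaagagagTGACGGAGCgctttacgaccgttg
Psmd9: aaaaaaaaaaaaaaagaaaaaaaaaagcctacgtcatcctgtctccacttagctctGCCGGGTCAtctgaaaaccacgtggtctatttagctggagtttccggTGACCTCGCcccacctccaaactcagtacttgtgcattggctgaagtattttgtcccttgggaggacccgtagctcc

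In Psma3 the match reads on the opposite strand, Psmd9 holds 2 matches in opposite orientations, and in Psmb2 the match shares 1 base with a CCAAT. The 9 genes with a match had a median difference of 0.76, 0.68 and 0.41 at the rising doses, and the 44 without one 0.50, 0.28 and 0.23. The range with a match was -0.065 to 1.30 at 0.003%, and it lay inside the range without one (-1.69 to 1.84). Of the other motifs, GAANNTTC (heat shock element core) was found in 5.56% of these promoters and 7.23% of all. CCAAT was found in 46.3% and 34.0%, and TATAAA in 5.56% and 12.9%. A match is a description of these letters and not a binding site.

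The highest and the lowest H2O2 doses were also compared directly. At 0.009% against 0.003%, 45 of 63 genes had the lower level at 0.009% (41.5% of all features), and the median was -0.31 beside 0.18 for all features. Array median and spike-in scaling shift all these differences downward by 1 value per array, so no negative one could turn under them. Positive differences numbered 15 of 63 with quantile normalization and 13 with normexp, against 18 with the 75th percentile. At least 2-fold lower at 0.009% were 4 genes (5.31% of all features), namely Psmd3 (-1.12), Usp7 (-1.07), Ube2d2b (-1.05) and Psmb8 (-1.04), and 0 were at least 2-fold higher (12.4%). Ubb had the highest positive difference, 0.74, which was -0.26 with spike-in scaling.

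**Figure D5:**
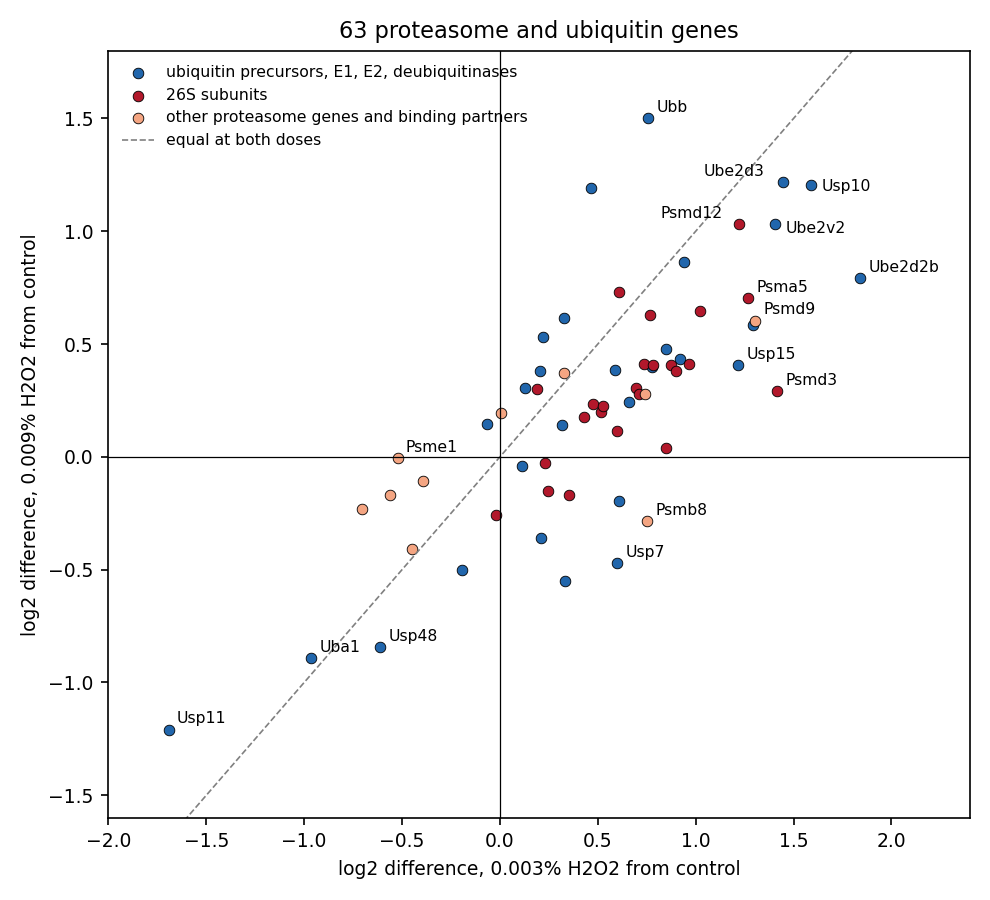
Difference from the control array (log2) of each of the 63 genes at 0.009% H2O2 (y axis) against 0.003% (x axis). On this scale 45 genes lay below the dashed line of equal difference and 18, Ubb among them, above it, while spike-in scaling, which shifts all genes downward, put Ubb and all others below it.

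A straight line over dose, fitted with limma on all 22352 features, called 0 of 63 genes after Benjamini-Hochberg adjustment, as it called 0.0% of all features, and each alternative also called 0. The lowest adjusted p from limma among these genes was 0.275, for Ubb, and the lowest of all features 0.258. Ubb had a slope of 0.49 ± 0.12 (SE) per 0.003% step, with an unadjusted limma p of 0.0137. Ubb was one of 2 genes with an unadjusted p under 0.05 and a slope above 0 (11.1% of all features), and 0 had one below 0 (2.72%). With spike-in scaling 0 such slopes were above 0 and 19 below it. The share of all features under that scaling is not given here, so the 19 cannot be set against a background. The median slope with that scaling was -0.33 for the 63 genes and -0.34 for all features. The fit rests on 4 arrays with 2 residual degrees of freedom, and the order of the 26S subunits is no straight line.

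Beyond the 63 genes, 100 further ubiquitin and proteasome genes were listed, of which 47 were named on the array and 46 measured. At least 2-fold higher were 12, 10 and 5 at the rising doses, and at least 2-fold lower 3, 2 and 1. Of all features, 14.9%, 14.9% and 16.5% were at least 2-fold higher and 13.6%, 10.5% and 7.4% lower. The list's median was 0.44, 0.25 and 0.15, beside 0.027, 0.048 and 0.16 for all features. Zfand2a, an arsenite- and heat-inducible protein that binds the proteasome, differed by 3.86, 4.68 and 5.02. Siah2, a RING ligase of the hypoxia response, differed by 2.79, 3.60 and 3.75. Both were above the control at every dose and under every alternative. Siah2 was dim in the control, with a level of -3.43, and with normexp its differences were smaller, 1.16, 1.75 and 1.84. Mdm4, a partner of Mdm2 in restraining p53, differed by 2.10, 1.86 and 1.44. It was also dim in the control, with a level of -2.35. With normexp its differences were 1.05, 0.92 and 0.80, and with spike-in scaling it differed by 0.25 at 0.009%. Ubqln1, a shuttle that brings ubiquitinated proteins to the proteasome, differed by 1.43, 1.35 and 1.15, the last value turning to -0.032 with spike-in scaling.

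At the other end of that list, Ube4a, a chain-elongating ligase, differed by -1.47, -1.33 and -1.07. Trim63, a ligase best known from muscle atrophy, differed by -1.81, -1.26 and -0.83, and by -0.83, -0.62 and -0.36 with normexp. Cblb, a ligase for receptor tyrosine kinases, differed by -0.44, -0.63 and -0.83, and Sae1, a subunit of the SUMO E1, by -0.14, -0.38 and -0.73. These 4 were below the control at every dose and under every alternative, although array median and spike-in scaling could only lower their values.

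Several probes were available for 17 of the 63 genes. The difference from the control of a gene's probes differed by a median of 0.22, 0.19 and 0.22 at the rising doses, about the size of the spot error. The largest gaps were 1.47, 1.30 and 1.05. Probes of a gene lay on opposite sides of the control for 2, 1 and 3 genes, with Psmc4 and Usp48 among them at 0.009%.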

How the data were processed

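Total RNA of 4 NRK-52E cultures, 1 per dose of H2O2, was measured on 1-colour Agilent arrays. Per the file headers, the authors used Feature Extraction, version 10.7.3.1, with protocol GE1_107_Sep09 on array design 014879 (annotation rn4), and the deposited spot signal is a linear intensity with background subtracted. Values in the deposited table are a linear ratio to the array median, with scale and direction settled by its match to the spot signals in 100% of probes, within a relative 1e-06. Here, outlier spots were left out, log2 signals of a probe's spots were averaged, and the log2 75th percentile of noncontrol spots was subtracted.

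Gene names came from RefSeq accessions (26.4% of 41012 probes named). Where several probes of a gene passed background on 1 array or more, the brightest stood for it. Unnamed probes were grouped by the array's own identifier. A side not well above background was set to a bound, which none of the 63 genes needed. Single doses got no p-value. A straight line over dose was fitted to all features by limma (version 3.58.1, R 4.3.3), after a check on simulated data. Its p-values rest on the spread of single arrays around that line, which also holds departures from a straight line.

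The members and lists were chosen with earlier results of these data known. Some genes that enter the counts are not reported here by name. Otherwise, named were all genes of classes of at most 8, the 4 highest and 4 lowest at 0.009% of larger ones, and every gene at least 2-fold from the control. The separation of Psmc3ip and Psme3ip1, the order of doses and the counts of 0.009% against 0.003% were chosen after values were seen. Alternatives were array median, spike-in and quantile scaling, normexp (offset 50, on median signals, since mean signals were not used here), a filter on both arrays, the deposited table and the mean over probes. The number of arrays limits the precision.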

Additional observations from a re-analysis of the deposited data

How the results depend on the processing

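At 0.003% the median over the 63 genes was 0.45 (array median, quantile and deposited table), 0.41 (spike-in) and 0.49 (normexp), beside 0.60 on the main scale. Genes at least 2-fold higher numbered 8 with normexp and between 10 and 12 otherwise. Genes at least 2-fold lower numbered 2 with array median, spike-in and quantile scaling and the deposited table, and 0 with normexp. At 0.006%, at least 2-fold higher were 4 (array median and deposited table), 1 (spike-in), 7 (quantile) and 6 (normexp). At least 2-fold lower were 4 (array median and deposited table), 5 (spike-in), 1 (normexp) and 1 (mean over probes). The median difference was 0.054 (array median and deposited table) and -0.19 (spike-in), beside -0.25 and -0.48 for all features. At 0.009%, at least 2-fold higher were 0 (array median, deposited table and spike-in), 3 (quantile) and 2 (normexp). At least 2-fold lower were 6 (array median and deposited table) and 24 (spike-in). The median was -0.27 (array median and deposited table), -0.89 (spike-in) and 0.055 (quantile), beside -0.40, -1.08 and -0.034 for all features. For 0.009% against 0.003%, at least 2-fold lower were 10 (array median and deposited table) and 45 (spike-in). The median was -0.72 (array median and deposited table) and -1.31 (spike-in), beside -0.24 and -0.86 for all features. The shares of all features past the 2-fold limit under the alternatives are not given here, so these counts cannot be set against a background. Spike-in scaling turned the 2-fold calls at 0.009% to -0.16 for Ube2v2, -0.16 for Psmd12 and -0.032 for Ubqln1. Array median and spike-in scaling differ from the main scaling by 1 value per array, so these counts moved together. The cause of the other shifts was not tested. The filter on both arrays moved none of these values. No paired analysis was possible because each dose has 1 array, and leaving out a replicate was not possible for the same reason. With 1 culture per dose, the spread between cultures is unknown for every value.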
